A study of Mus musculus with 8 samples.

Results

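NF-κB is a family of transcription factors that drives the inflammatory response of macrophages. Its subunits form dimers that inhibitory IκB proteins hold in the cytoplasm; a signal from a Toll-like or tumour necrosis factor receptor leads to phosphorylation and loss of the inhibitor, and the freed dimer enters the nucleus. Among the genes it switches on are those of its own inhibitors, which end the response, and of the cytokine tumour necrosis factor, which can start it again. Many transcripts of this circuit are short-lived. N6-methyladenosine, or m6A, is a methylated form of the base adenosine found within messenger RNA, and it is known to affect how long many transcripts last.

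The 10 genes described here are the subunits Nfkb1, Nfkb2, Rel, Rela and Relb, the inhibitors Nfkbia and Nfkbie, the related nuclear regulator Nfkbiz, the ubiquitin-editing enzyme gene Tnfaip3 (A20), and Tnf. They were chosen by name, and a peak was counted for one of them if that gene held it on its own strand. The 10 genes held 10 peaks in all, of 20732 in the 4 peak lists, and 4 of the 10 held at least 1. The values come from RAW264.7 cells, a mouse macrophage line, exposed for 24 h to 100 µM of one of 3 compounds (TBP, TCP and TIP), or left without treatment (control). These are the labels' abbreviations, which the labels do not spell out. RNA was pulled down with an antibody to m6A and sequenced, and 1 peak list was used from the 1 immunoprecipitated library of each condition. The 4 libraries of input RNA were not used.

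Each condition has a single library, so no difference carries a p-value and none can be set against a spread between cultures. The lists give no read counts, so sequencing depth is unknown for every peak. A gene without a peak is one for which no peak was called: less methylation, less transcript and too few reads cannot be told apart in these lists. The lists differ in length, with 6285 peaks after TBP, 6981 after TCP, 3034 after TIP and 4432 in control. Each peak has 1 score from the authors, with no stated scale and another lowest value in each list, so ranks are given within a list (1 is the highest score; tied scores share the better rank). Of 10 macrophage markers, 8, 5, 4 and 7 had a peak after TBP, TCP and TIP and in control, Csf1r, Mpeg1, Cd14 and Fcgr1 in all 4 lists; Adgre1 and Itgam had none. None of 16 markers of other cell types had a peak in any list. Coordinates are on GRCm38 (mm10).

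Tnf and Nfkb1 had a peak in all 4 lists, Nfkbia in control only and Rel after TBP only. Nfkb2, Rela, Relb, Nfkbie, Nfkbiz and Tnfaip3 had none in any list. By list, 3 of the 10 genes had a peak after TBP, 2 after TCP, 2 after TIP and 3 in control. Over 21900 protein-coding genes of RefSeq, the share with a peak was 14.1% after TBP, 15.3% after TCP, 8.08% after TIP and 11.2% in control, and 19.3% had a peak in at least 1 list. That background covers genes of every expression level, including genes that macrophages do not express. No member had more than 1 peak in a list. Of all genes with a peak, those with exactly 1 made up 56.4% after TBP, 55.2% after TCP, 66.1% after TIP and 61.2% in control.

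**Figure D1:**
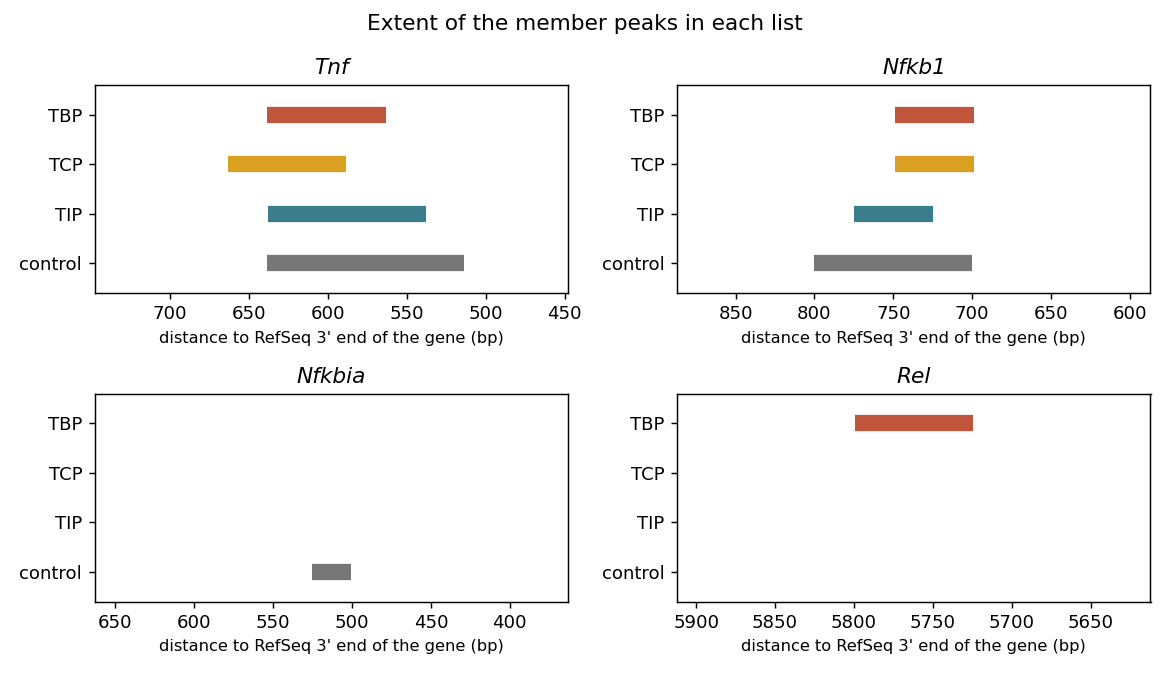
Extent of each peak of Tnf, Nfkb1, Nfkbia and Rel in the TBP, TCP, TIP and control lists, as the distance in bp to the RefSeq 3′ end of the gene (5′ to 3′ from left to right). The 4 peaks of Tnf share 50 bp and the 4 peaks of Nfkb1 share 25 bp, while Nfkbia has a bar only in control and Rel only after TBP.

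Of the 10 peaks, 9 were annotated to a 3′ UTR by the authors and the other one to a last exon. These peaks lie at only 4 sites, since Tnf and Nfkb1 each had the same site in all 4 lists. The sites of Tnf, Nfkb1 and Nfkbia are in a 3′ UTR and that of Rel is in the last exon. The 3′ UTR class held 50.7% of all peaks after TBP (exact Clopper-Pearson 95% interval 49.4 to 51.9), 48.5% after TCP (47.3 to 49.7), 48.8% after TIP (47.0 to 50.6) and 50.9% in control (49.4 to 52.4); these and the intervals that follow cover counting error only. The peaks of Tnf, Nfkb1 and Nfkbia lay 513 to 750 bp before the RefSeq 3′ end of their gene, and the Rel peak lay 5762 bp before that of Rel. All 3′ UTR peaks of up to 500 bp had a median distance of 1611 bp to the RefSeq 3′ end after TBP, 1634 bp after TCP, 1650 bp after TIP and 1650 bp in control, with lower quartiles of 606 to 685 bp. Tnf and Nfkbia span only 2641 and 3239 bp in all, which limits the distance that a peak in them can have.

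Among the subunits, Nfkb1 encodes p105, the precursor of the DNA-binding subunit p50. Its peak lay at chromosome 3, 135585355 to 135585404, after TBP and after TCP, at 135585380 to 135585429 after TIP and at 135585355 to 135585454 in control, on the minus strand. All 4 intervals share 25 bp, 135585380 to 135585404, at the far end of a gene that spans 107315 bp. The site was thus called in the same place in every list, with a width of 50 bp after each compound and 100 bp in control.

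The Nfkb1 peak ranked 1393 of 6285 after TBP, 1895 of 6981 after TCP, 2110 of 3034 after TIP and 1233 of 4432 in control. These ranks are 22.2%, 27.1%, 69.5% and 27.8% of the way down the TBP, TCP, TIP and control lists. They were shared by 59, 148, 159 and 76 tied peaks in the same order. In the TIP list the Nfkb1 peak was below the median score (10.8 against a list median of 11.1) and close to the lowest score of 10.7. In the other 3 lists it was above the median, at 9.55 against 8.98 after TBP, 9.63 against 9.15 after TCP and 9.31 against 8.95 in control.

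Rel encodes c-Rel, a subunit with a transactivation domain that is prominent in blood cells. It had 1 peak after TBP and none after TCP, after TIP or in control. The peak lay in exon 10 of 10 at chromosome 11, 23742572 to 23742646 (minus strand, 75 bp), 5762 bp before the RefSeq 3′ end of Rel. It ranked 2528 of 6285, a rank shared by 261 tied peaks. The authors' nearest-gene column names Pus10, a neighbouring gene, while their exon annotation gives the gene ID of Rel.

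Rel was the 1 member gained after TBP, meaning a peak in that list and none in control; none was gained after TCP or TIP. Over the 4300 genes that had at least 1 peak, 25.0% were gained after TBP, 30.6% after TCP and 7.65% after TIP. Of the 234 TBP genes whose strongest peak ranked within 250 places of the Rel peak, 90, or 38.5% (32.2 to 45.0), had no control peak. Rel thus shared the lack of a control peak with more than 1 in 3 genes of like rank. Its full pattern, a peak after TBP alone, was rarer, at 19 of the 234, or 8.12%. In all, 415 genes had a peak after TBP alone, and Rel took place 36 among them by its strongest TBP peak.

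The remaining subunits had no peak. Rela encodes p65, the main activating subunit, Relb the activating subunit of the alternative pathway, and Nfkb2 encodes p100, precursor of p52 and itself an inhibitor of RelB. No peak on either strand overlapped their RefSeq spans in any list. The nearest peak of any list lay 12380 bp from Rela (held by Sipa1), 40872 bp from Relb (held by Gemin7) and 14564 bp from Nfkb2 (held by Gbf1).

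Among the inhibitors, Nfkbia encodes IκBα, which NF-κB induces and which carries it back out of the nucleus. Its transcript had no peak after TBP, TCP or TIP and 1 peak in control, at chromosome 12, 55489910 to 55489934 (minus strand, 3′ UTR, 25 bp). The peak ranked 196 of 4432, 4.42% of the way down the control list, with a score of 12.3 against a list median of 8.95 and no other peak tied to it. It was the best-ranked peak that any member had in any list as a share of list length, and Nfkbia was the 1 of the 3 members with a control peak that had none after any compound.

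Nfkbia was lost (a control peak and none in the compound's list) in each of the 3 comparisons, which share the control library. The share of the 4300 genes that were lost was 9.91% after TBP, 9.21% after TCP and 23.6% after TIP. At the rank of its peak such a loss was rare. Of the 155 genes whose strongest control peak ranked as high as that of Nfkbia or higher, 150 had a peak after TBP (96.8%, 92.6 to 98.9), 150 after TCP (96.8%, 92.6 to 98.9) and 144 after TIP (92.9%, 87.7 to 96.4). A peak in none of the compound lists was found for 2 of the 155, Nfkbia and Pabpc1, the gene of the cytoplasmic poly(A)-binding protein. Among the 159 genes with a peak in control alone the median rank of the strongest peak was 3291, and Nfkbia took place 2 after Pabpc1.

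The Nfkbia peak was narrow and the one peak of its gene, and few control genes of such rank are alike in this. Of the 27 genes with exactly 1 control peak at the rank of Nfkbia or higher, 23 had a peak in all 3 compound lists and 1, Nfkbia itself, in none. Only 2 of the 27 had a peak of 25 bp, of which the gene other than Nfkbia had a peak in all 3 compound lists. Peaks of 25 bp made up 35.6% of the list after TBP, 37.2% after TCP, 34.9% after TIP and 36.6% in control. The part that peak width plays in the absence of the Nfkbia peak was not tested.

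**Figure D2:**
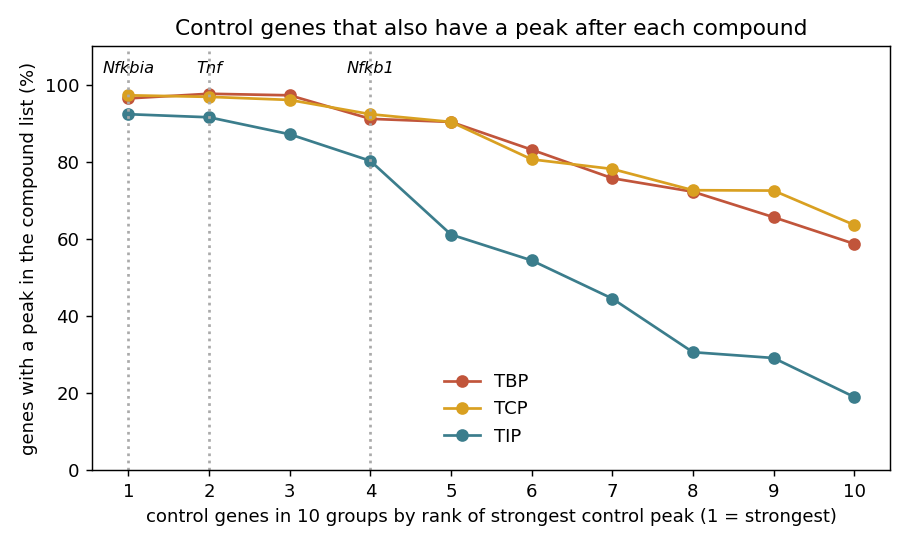
Share of the genes with a control peak that also had a peak after TBP, TCP or TIP (y axis, %), for 10 groups of control genes of about equal size ordered by the rank of their strongest control peak (x axis, 1 is the strongest group); dotted lines mark the groups of Nfkbia, Tnf and Nfkb1, and genes tied at a boundary were divided in alphabetical order. In the strongest group, which holds Nfkbia, 96.4% of 248 genes had a peak after TBP, 97.2% after TCP and 92.3% after TIP, and in the weakest group 58.7%, 63.6% and 19.0% of 247 genes.

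The shares also bear on the members that kept their peak. Between the control ranks of Nfkbia and Tnf (197 to 430), 172 of 189 genes had a peak in all 3 compound lists, or 91.0% (86.0 to 94.7), and Tnf was among them. Between the ranks of Tnf and Nfkb1 (431 to 1233), 476 of 591 did, or 80.5% (77.1 to 83.7), Nfkb1 included. After the rank of Nfkb1 the share was 32.0% (29.6 to 34.4) of 1539 genes. A peak in all 4 lists was thus the usual outcome at the ranks that Tnf and Nfkb1 had in control.

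Nfkbie encodes IκBε, an inhibitor that acts mainly on c-Rel and p65 dimers. Nfkbiz encodes IκBζ, a nuclear protein that NF-κB induces and that is needed for a later set of inflammatory genes. Tnfaip3 encodes A20, which edits ubiquitin chains on signalling proteins and ends the response. None of them had a peak, and no peak on either strand overlapped their RefSeq spans. The nearest peak lay 5310 bp from Nfkbie (held by Hsp90ab1), 5599 bp from Nfkbiz (held by Nxpe3) and 412272 bp from Tnfaip3 (held by Arfgef3).

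For Nfkbiz the authors' nearest-gene column gives another picture. It names Nfkbiz for 2 peaks of the TCP list, at chromosome 16, 55866216 to 55866265 (rank 4184) and 55844553 to 55844577 (rank 5932). Both lie outside Nfkbiz, 27317 bp and 5654 bp before its listed start, and the same rows annotate them to exons 3 and 6 of 6 of Nxpe3. They were counted for Nxpe3.

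Tnf encodes tumour necrosis factor, the cytokine that macrophages release early in inflammation. Its transcript is known for AU-rich elements in the 3′ UTR that proteins of the tristetraprolin family bind to shorten its life. The peak of Tnf lay at chromosome 17, 35199931 to 35200005 after TBP, 35199956 to 35200030 after TCP, 35199906 to 35200005 after TIP and 35199881 to 35200005 in control, on the minus strand. These peaks were 75, 75, 100 and 125 bp wide in TBP, TCP, TIP and control, and all 4 share 50 bp, 35199956 to 35200005. The whole site covers 150 bp of a gene of 2641 bp.

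The Tnf peak ranked 1379 of 6285 after TBP, 1354 of 6981 after TCP, 547 of 3034 after TIP and 430 of 4432 in control. As shares of the list these ranks are 21.9% after TBP, 19.4% after TCP, 18.0% after TIP and 9.70% in control. They were shared by 14, 92, 31 and 23 tied peaks in the same order. The score of the Tnf peak was above the list median in every list, at 9.60, 9.90, 11.4 and 10.4 in TBP, TCP, TIP and control. Ranks in lists of different length do not measure a change between conditions.

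**Figure D3:**
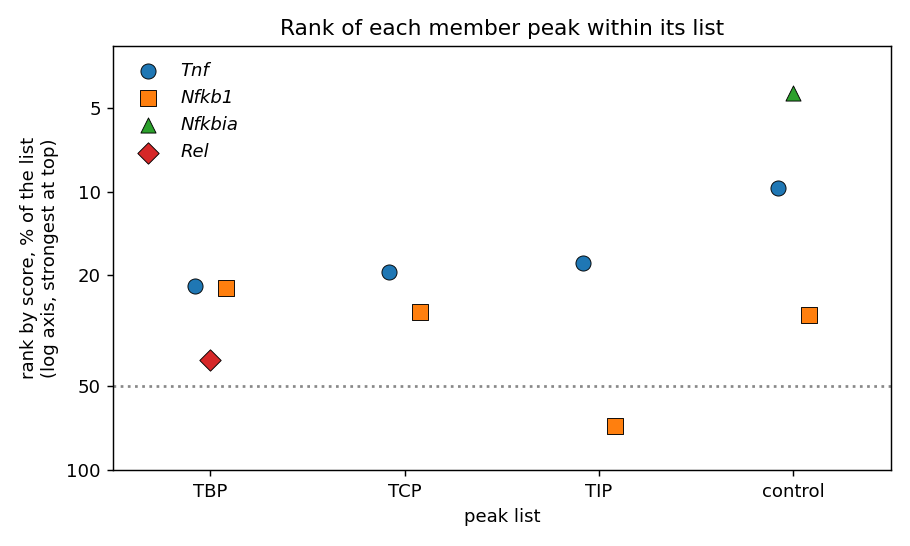
Rank of each member peak by score as a percentage of its list (y axis, log scale, strongest at the top; the dotted line marks 50%) in the TBP, TCP, TIP and control lists (x axis). Nfkbia in control stands highest at 4.42%, the peaks of Tnf lie between 9.70% and 21.9%, and Nfkb1 after TIP stands lowest at 69.5%.

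Peaks of the 4 lists that overlapped by at least 1 bp on a strand were joined into sites. The members had 4 sites, of which those of Tnf and Nfkb1 had a peak in all 4 lists and those of Nfkbia and Rel in 1. Of 11753 sites in all, 10.6% had a peak in all 4 lists, and of the 4300 genes with a peak, 29.8% had one in all 4. Tnf and Nfkb1 belonged to 159 genes with exactly 1 peak in each list, and in 126 of these all 4 peaks fell in 1 site, as they did in both members.

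Genes with the same number of peaks in every list were compared by the rank of the strongest control peak. Of 149 genes that had, like Nfkbia, 1 control peak and none elsewhere, the nearest in control rank were H1f3 (rank 336), Mdh2 (708), Snx19 (1233), Pdcd6ip (1581) and Capg (1698). The distance from rank 196 to these values shows how few genes with this pattern ranked near Nfkbia. Of 158 genes with 1 peak in each list, those nearest to Tnf in control rank were Eea1 (430), Pcyox1l (418), Tnfaip8l2 (459), F730043M19Rik (400) and Tnfrsf11a (486). Those nearest to Nfkb1 at rank 1233 were Clcc1, Csnk1d, Pigb and Slc35b3 at the same rank and Rnf19a at 1218. The likeness covers 4 libraries and nothing beyond their peak numbers and ranks.

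Members of this family are known to carry binding sites for NF-κB before their own start, and RefSeq windows (GRCm38.p6) were available for 7 of the 10, namely Nfkb2, Rel, Rela, Nfkbia, Nfkbie, Tnfaip3 and Tnf. A gene can have more than 1 start and window. In the 250 bases before a start, the κB consensus was searched on both strands, and overlapping matches were counted as a match. It was present for 5 of the 7, Nfkb2, Rel, Nfkbia, Nfkbie and Tnfaip3, and not in these windows for Rela and Tnf. Over all genes with a window, 8.23% of 27025 had a match. The match nearest to the start is shown for each of the 5, 5′ to 3′ on the strand of the gene with the match in capitals, since these 5 of the 7 members with a window share it:
Nfkb2, chr19:46304716-46304736, plus strand: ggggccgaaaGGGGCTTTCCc
Rel, chr11:23771041-23771070, minus strand: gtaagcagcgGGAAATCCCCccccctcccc
Nfkbia, chr12:55492657-55492686, minus strand: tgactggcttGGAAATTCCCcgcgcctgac
Nfkbie, chr17:45555584-45555613, plus strand: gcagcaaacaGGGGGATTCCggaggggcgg
Tnfaip3, chr10:19015411-19015432, minus strand: aatttccatcGGAAATCCCCct

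The matches began 11 bases before the start in Nfkb2, 91 in Rel, 29 in Nfkbia, 106 in Nfkbie and 12 in Tnfaip3. In the matches shown for Rel, Nfkbia and Tnfaip3 the consensus reads on the strand opposite to the gene. Rel and Tnfaip3 also had a match on the strand of the gene, 92 and 125 bases before the start. A match is a description of these letters and was not linked to any m6A peak: Nfkbia and Rel, with a peak in 1 list each, have one, as do Nfkb2, Nfkbie and Tnfaip3, which had no peak.

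Around the members, 80 further genes of the pathway in 5 lists were examined, of which 26 had a peak after TBP, 29 after TCP, 14 after TIP and 21 in control. In all, 35 had a peak in at least 1 list. They made up 43.8% of the 80, against 19.3% of protein-coding genes, a background that includes genes macrophages do not express. By list this share ran from 19.0% for the inflammatory target genes to 66.7% for the regulators of Tnf messenger RNA or protein. Of these 35, 25.7% were gained after TBP, 31.4% after TCP and 5.71% after TIP, against 25.0%, 30.6% and 7.65% of all genes with a peak. Lost were 11.4% after TBP, 8.57% after TCP and 25.7% after TIP, against 9.91%, 9.21% and 23.6%. The shares gained and lost among the pathway genes with a peak were near those of all genes with a peak in each comparison.

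**Figure D4:**
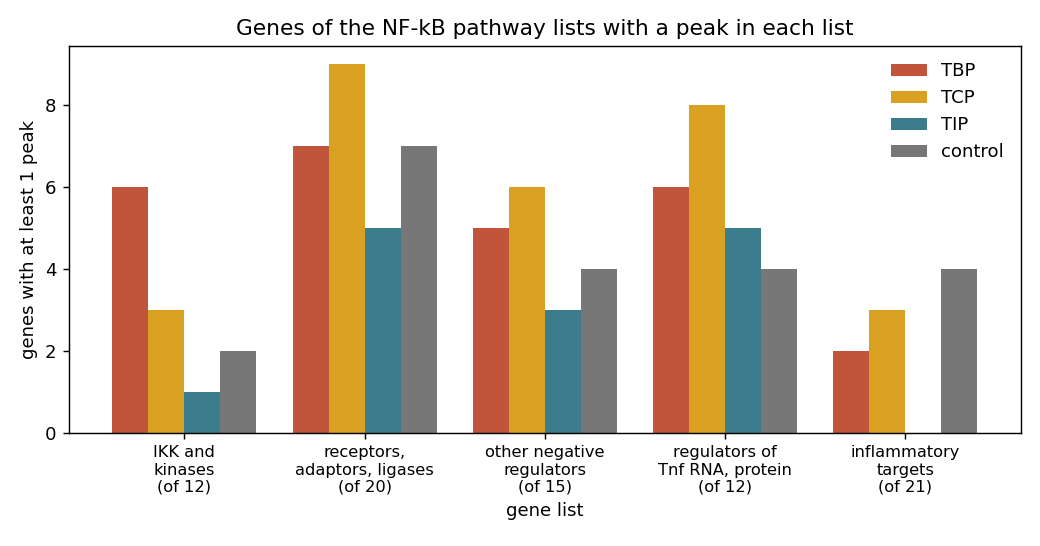
Number of genes with at least 1 peak (y axis) in the TBP, TCP, TIP and control lists for each of 5 lists of pathway genes, with the number of genes per list on the x axis. Of the 21 inflammatory target genes 2 had a peak after TBP, 3 after TCP, 0 after TIP and 4 in control, and of 12 kinases and their partners 6, 3, 1 and 2.

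Of 12 genes of the IκB kinase complex and the kinases above it, 6 had a peak after TBP, 3 after TCP, 1 after TIP and 2 in control. Tab2, an adaptor that ties the kinase TAK1 to ubiquitin chains, was the one with a peak in every list, with 6 peaks after TBP, 7 after TCP, 2 after TIP and 3 in control (its best control peak, rank 231, lay in an exon on chromosome 10, 7920350 to 7920449). Tab1, a second TAK1 partner, and Map3k3, an upstream kinase, had peaks after TBP (1 and 1) and TCP (1 and 3) and none after TIP or in control. Their best ranks were 3126 and 5377 of 6285 after TBP and 5932 and 2827 of 6981 after TCP. Map3k7, which encodes TAK1, had 1 peak after TBP alone, at rank 3423. Map3k14, the kinase of the alternative pathway, had 1 peak after TBP and 1 in control, and none after TCP or TIP. Both ranked low, at 4741 of 6285 after TBP and 3772 of 4432 in control. The kinase genes Chuk and Ikbkb and the regulatory subunit gene Ikbkg had no peak in any list.

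Of 20 receptors, adaptors and ubiquitin ligases, 7 had a peak after TBP, 9 after TCP, 5 after TIP and 7 in control. The receptor gene Tnfrsf1b (TNF receptor 2) had 4, 3, 3 and 3 peaks in TBP, TCP, TIP and control. Tnfrsf1a (TNF receptor 1) had 2, 1, 0 and 2. The ligase genes Traf6 (2, 2, 2 and 2), Traf3 (3, 3, 1 and 2) and Birc3 (1, 3, 2 and 1) had peaks in all 4 lists. Traf1, itself induced by NF-κB, had no peak after any compound and 1 in control (3′ UTR, chromosome 2, 34943400 to 34943449, rank 1905), the pattern of Nfkbia at a lower rank. Birc2 and Irak1 had 1 peak each after TBP, 2 each after TCP, and none after TIP or in control.

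Of 15 further inhibitors and negative regulators, 5 had a peak after TBP, 6 after TCP, 3 after TIP and 4 in control. The deubiquitinase genes Cyld (2, 2, 1 and 1 peaks in TBP, TCP, TIP and control) and Otulin (1, 2, 1 and 1) had one in every list. Tnip3, an A20-binding protein, had 2, 2, 0 and 2 and Rnf11, a partner of A20, had 1, 1, 0 and 1. Tax1bp1, another partner of A20, had 0, 2, 1 and 0. The IκB genes Nfkbib, Nfkbid and Bcl3 had no peak, so Nfkbia was the 1 gene with a peak among Nfkbia, Nfkbib, Nfkbid, Nfkbie, Nfkbiz and Bcl3. Nfkbib, Nfkbid and Bcl3 were named here once their values had been seen. Across protein-coding genes the share with any peak was 19.3%, and 1 gene in so small a group does not set it apart from that share.

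Of 12 regulators of Tnf messenger RNA or protein, 6 had a peak after TBP, 8 after TCP, 5 after TIP and 4 in control. Adam17, the protease that releases soluble tumour necrosis factor from the membrane, had 5, 2, 3 and 3 peaks in TBP, TCP, TIP and control. Zfp36l2, a relative of tristetraprolin, had 3, 4, 3 and 2, and Elavl1 (HuR), which stabilises AU-rich transcripts, had 3, 1, 1 and 1. Hnrnpd (AUF1), another AU-rich element-binding protein, had 2 in each list. Rc3h1 (Roquin-1), which binds a stem-loop in the Tnf 3′ UTR, had 1 peak after each compound and 0 in control. Its ranks were 4741 of 6285 after TBP, 5932 of 6981 after TCP and 1455 of 3034 after TIP. The TBP peak spans 160906693 to 160930006 of chromosome 1, far more than 500 bp of genome, so it does not locate a site. Rc3h2 (Roquin-2) had 1 peak after TBP, 1 after TCP and none after TIP or in control. Zfp36, which encodes tristetraprolin, had 1 peak after TCP (rank 5932) and none in the other lists.

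Of 21 inflammatory target genes 17 had no peak in any list, among them Il1b, Il6, Cxcl2, Ptgs2 and Nos2. The share with a peak in at least 1 list was 19.0%, near the 19.3% of all protein-coding genes. The other 4 had peaks in control, and none of them after TIP, a list in which 59.0% of all 2474 control genes had a peak and 23.6% of all genes with a peak were lost. Icam1, an adhesion molecule, had 3, 1, 0 and 2 peaks in TBP, TCP, TIP and control, with its strongest control peak at rank 238. Ier3, an immediate early gene, had 1, 1, 0 and 1. Ccl3, a chemokine, had 0, 1, 0 and 1. Ltb, the gene of lymphotoxin beta and a close neighbour of Tnf on the opposite strand, had 0, 0, 0 and 1, its peak at chromosome 17, 35196255 to 35196304. Lta, on the other side of Tnf, had none, so Tnf was the 1 gene of this cluster with a peak in all 4 lists.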

How the data were processed

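RAW264.7 cells were profiled by m6A immunoprecipitation and sequencing, 1 immunoprecipitated and 1 input library per condition; the 4 peak lists of the immunoprecipitated libraries were used. Per the submitters' processing notes, the tools included HISAT2 2.1.0, SAMtools 1.9, HOMER 4.11 and ChIPseeker 1.26, named without a role, and the builds GRCm38 and mm10. The sources used here do not name the peak caller, its threshold or how the input served. The authors deposited 1 score per peak, with no unit, and positions, class and nearest gene per the file headers.

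A peak was given the gene ID in its exon annotation (45.3% of peaks), else the nearest gene if that gene covered it on its strand (37.5%), else the 1 RefSeq gene over it on that strand (15.7%; GRCm38.p6); 1.42% stayed without a gene. All 10 members and all 80 pathway genes matched a RefSeq symbol. The steps were tested on simulated peaks whose annotation already named the planted gene. The test did not cover conflicting annotations or the step that uses the RefSeq gene over a peak. Python 3.11.15 with pandas 2.3.3 and scipy 1.17.1 was used.

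The members and lists were chosen with earlier results of these data known. All 10 members are named; of each pathway list the text names up to 5 genes with peaks in the most lists, and up to 3 each gained or lost with at least 2 compounds. Chuk, Ikbkb, Ikbkg, Nfkbib, Nfkbid, Bcl3, Zfp36, Il1b, Il6, Cxcl2, Ptgs2, Nos2 and Lta were named after their values were seen. Tnf and Nfkb1 tied for the most peaks, so genes of like pattern were sought for both. Alternatives were equal list length, a median score minimum, the nearest-gene column, no peaks over 500 bp, and other overlaps for sites.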

Additional observations from a re-analysis of the deposited data

How the results depend on the processing

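Of 77 values recomputed under the alternatives, 67 stayed within 1.5 times of the reported count. For small counts that range is wide, and some of the 67 could not change, as given below. With the nearest-gene column, for example, members with a peak numbered 2 after TBP and 3 after TCP, against 3 and 2 reported. Pathway genes with a control peak numbered 14 there, against 21. These values are among the 67. When each list was limited to scores from its own median up, TIP kept 1 member with 1 peak (Tnf), 2 members were lost after TIP (Nfkb1 and Nfkbia), 1 member site was in all 4 lists, and 17 pathway genes had a peak after TBP. With the nearest-gene column, members gained numbered 0 after TBP, since Rel is named Pus10, and 1 after TCP, Nfkbiz, which took the TCP list to 4 member peaks; both TCP peaks lie outside Nfkbiz. At equal list length (at least the 3034 best peaks of each list, ties kept) 13 pathway genes had a peak after TBP and 19 after TCP. The members' counts could not change at this setting, since no member peak ranked below 2528 in its list. Leaving out peaks over 500 bp could not change a member count either, since no member peak was wider than 125 bp. The member sites in all 4 lists numbered 2 with 50% reciprocal overlap and with peaks within 100 bp joined. No paired analysis was possible because each condition has 1 library. The lists hold no read counts, so the limit set by depth is unknown.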
